A study of Mus musculus with 6 samples.

Results

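Adipocytes and osteoblasts arise from the same mesenchymal precursors, and the adipocyte programme is switched on by the nuclear receptor PPARγ (*Pparg*) together with C/EBP factors. Its products bring fatty acids into the cell, bind them in the cytosol, build triglyceride, coat the lipid droplet and break the stored fat down again. Glucocorticoids are a usual component of the cocktails that turn preadipocytes into fat cells in culture, and excess glucocorticoid is known for bone loss with a fatty marrow.

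10 genes of the adipocyte lineage and of lipid storage were chosen by name for their known roles, out of a table of 24016 mouse genes. They were *Pparg* and *Zfp423* (transcription factors), *Lpl*, *Angptl4*, *Cd36* and *Fabp4* (release, uptake and binding of fatty acids), *Plin2* (droplet coat), *Pnpla2* and *Lipe* (lipolysis) and *Adipoq* (the fat-cell hormone adiponectin). 6 of the 10 were measured. *Pparg*, *Lpl*, *Cd36* and *Adipoq* were not analysed here.

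MC3T3-E1 subclone 4 is a clonal preosteoblast line from mouse calvaria, with the genotype given as WT. Every culture was differentiated for 6 days with 10 mM β-glycerophosphate plus 50 μg/ml ascorbic acid, and the sample labels list 10 nM calcitriol, the active form of vitamin D, for every sample of both groups. The vehicle group held 3 biological replicates, and the corticosterone group held 3 that were exposed for 24 h to corticosterone at 100 nM. This steroid is the chief endogenous glucocorticoid in mice. The comparison asks what the hormone does to RNA levels in osteoblasts, at 1 dose and 1 time in 1 line.

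The vehicle libraries held 19076586 to 25638645 reads on genes, and the corticosterone libraries, all less deep, held 16020401 to 18992332. Values are normalized counts, which are reads divided by 1 factor per library. 9 of 9 osteoblast markers were measured, at a summed normalized count of 1182813 to 1404031 in a library. At an adjusted p under 0.05 in limma 7 of them were lower after corticosterone, 1 (*Spp1*) was higher and 1 (*Dmp1*) did not pass. Of all genes 16.7% passed in either direction. Among genes with a mean normalized count of at least 10, as all 9 markers had, 27.7% passed. 4 glucocorticoid-induced genes (*Tsc22d3*, *Fkbp5*, *Per1*, *Sgk1*) rose by 1.49 to 2.75 on the log2 scale. Of 8 markers of adipocytes, *Plin1* alone was measured, and its normalized count was 0 in each vehicle library and 0 to 2.56 with corticosterone. Of 7 endothelial markers 4 were measured, with at most 9 reads in any library, and their sum ran from 0 to 13 with vehicle and from 2.21 to 14.1 with corticosterone. Of 7 macrophage markers 4 were measured (*Csf1r*, *Cd68*, *Lyz2*, *Cd14*), and their sum ran from 340 to 388 with vehicle and from 295 to 340 with corticosterone.

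After corticosterone *Fabp4* rose 8.19-fold and *Angptl4* rose 1.94-fold. *Zfp423* fell to 0.853 of its vehicle level with overlapping groups, a narrow call (limma adjusted p = 0.035) that some alternative fits lost. *Plin2*, *Pnpla2* and *Lipe* showed no difference that passed the test. Fold changes were fitted with limma on log2(normalized count + 0.1), and p-values were adjusted by Benjamini-Hochberg over all 24016 genes. A gene was called past the threshold at an adjusted p under 0.05 with an absolute log2 fold change over 1, the cut-offs of the study's methods. By that rule 1 of the 6 members was higher, where 331 of all genes were (1.38%). None of the 6 was lower, where 337 of all genes were (1.4%). On the adjusted p alone 3 of the 6 passed, 2 higher and 1 lower, against 4010 of all genes (16.7%). All 6 had a mean normalized count of at least 10, and of the 13880 genes at that level 27.7% passed. The groups did not overlap for 2 of the 6, against 7109 of all genes (29.6%). The median log2 fold change was 0.09 over the 6 members and -0.01 over all genes.

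**Figure D1:**
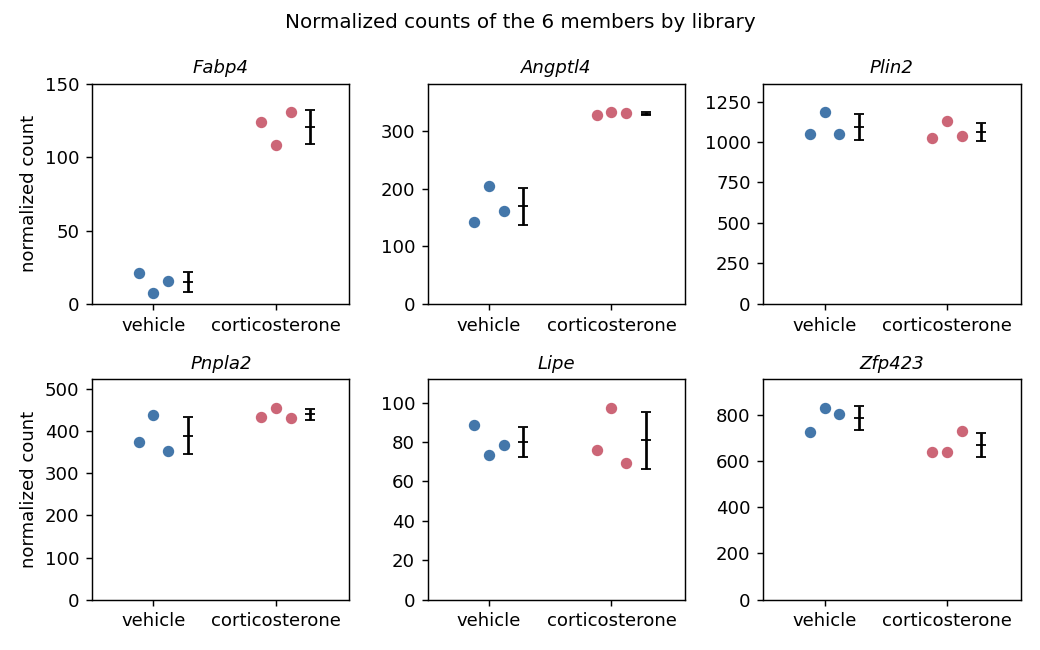
Normalized count (linear axis from 0) of each of the 6 members in the 3 vehicle and 3 corticosterone libraries, 1 point per library in the order of replicate 1 to 3, with the mean and SD of 3 beside them. For *Fabp4* (7.72 to 21.1 against 108 to 130.5) and *Angptl4* (142 to 205 against 327 to 332) the groups lie apart, while for the other 4 they overlap.

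*Fabp4* encodes the cytosolic fatty acid binding protein of fat cells, also called aP2, which carries fatty acids between membranes, droplets and the nucleus. The gene (ENSMUSG00000062515) is on the minus strand of chromosome 3 (GRCm38, 10204088 to 10208576). Its normalized counts were 21.1, 7.72 and 15.5 with vehicle and 124, 108 and 130.5 with corticosterone. Every corticosterone library was far above every vehicle library. The means were 14.8 ± 6.71 (SD, n = 3) and 121 ± 11.5 (SD, n = 3), and the log2 fold change was 3.14 (SE 0.31, 95% interval 2.48 to 3.79, limma adjusted p = 1.3e-06). The two-sided exact permutation test gave p = 0.1, the smallest that 3 libraries against 3 allow.

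The vehicle values rested on 26, 10 and 15 reads and the corticosterone values on 116, 98 and 102, although the corticosterone libraries were the less deep. Exact Poisson intervals (95%), which cover counting error only, ran from 13.8 to 30.9 in the highest vehicle library and from 87.9 to 132 in the lowest corticosterone library, so that they stood well apart. Within the vehicle group the interval of the lowest library, replicate 2 (3.7 to 14.2), still met that of the highest. The coefficient of variation was 45.4% with vehicle and 9.48% with corticosterone. Among the 13880 genes with a mean of at least 10, the *Fabp4* fold change ranked 30 from the largest increase, and it ranked 87 among the 331 genes called higher.

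*Fabp4* is also made by endothelial cells and macrophages. The endothelial markers summed to at most 14.1 in a corticosterone library, and the macrophage markers to at most 340, against 388 in a vehicle library, with *Lyz2*, named after its values were seen, lower by a log2 fold change of -0.37 (limma adjusted p = 0.020). The other 3 macrophage markers did not pass the adjusted p. In RNA from whole cultures, more *Fabp4* RNA per cell and more cells that make it cannot be told apart.

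The family members *Fabp5* and *Fabp3* were set beside *Fabp4* after their values were seen. *Fabp5*, the epidermal form, went from a mean of 991 ± 59.5 to 1194 ± 121 (SD, n = 3), a log2 fold change of 0.27 (limma adjusted p = 0.014). *Fabp3*, the heart form, was at 14.8 ± 2.17 and 10.9 ± 4.05, a log2 fold change of -0.48 with an adjusted p of 0.58 in limma, and its groups overlapped. Within each library the log2 ratio of *Fabp4* to *Fabp5* was -5.59, -6.88 and -6.04 with vehicle and -3.23, -3.33 and -3.34 with corticosterone. The ratio was thus higher in every corticosterone library, by 2.87 on average, and *Fabp5* counts stayed above those of *Fabp4* in all 6 libraries. *Fabp5* ran only from 922 to 1327 over the libraries, while *Fabp4* already separated the groups widely. The p of the ratio (exact permutation test, two-sided, p = 0.1) was therefore fixed beforehand and adds nothing to the *Fabp4* result.

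*Angptl4* encodes a secreted protein that inhibits lipoprotein lipase, the enzyme that frees fatty acids from circulating triglyceride, and it is known as a target of PPARs and of the glucocorticoid receptor. It (ENSMUSG00000002289) lies on chromosome 17, 33773750 to 33781830, on the minus strand. Its normalized counts were 142, 205 and 161 with vehicle and 327, 332 and 330.1 with corticosterone, on 156 to 305 reads. The corticosterone libraries were nearly equal, and all lay above the highest vehicle library. The means were 169.5 ± 32.5 and 329.7 ± 2.97 (SD, n = 3), and the log2 fold change was 0.98 (SE 0.12, 95% interval 0.73 to 1.23, limma adjusted p = 1.2e-05). The exact permutation test gave the smallest p it can, 0.1.

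The *Angptl4* change passed the adjusted p and sat just under the fold threshold of 1, within its own interval. Without replicate 2 of the vehicle group, the highest of the 3, it was 1.12 and past the threshold, and leaving out any other library gave values down to 0.86. The coefficient of variation was 19.2% with vehicle and 0.9% with corticosterone. That is narrower than counting error alone, since the exact Poisson interval of corticosterone replicate 1 ran from 291 to 365. *Lpl*, which codes for the enzyme that ANGPTL4 inhibits, was not analysed here, so the inhibitor could not be set against it.

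**Figure D2:**
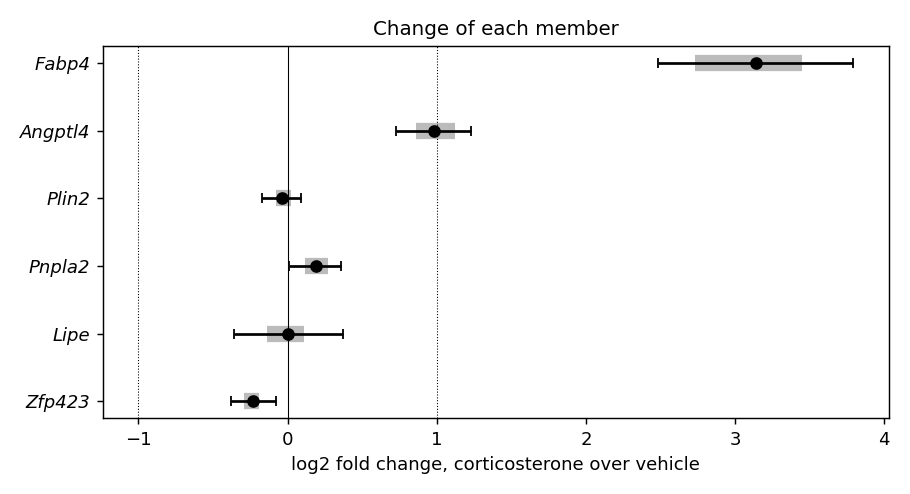
Log2 fold change of each member, corticosterone over vehicle, on log2(normalized count + 0.1). Points and bars give the limma estimate with its 95% interval, grey bands the range when each of the 6 libraries was left out, and dotted lines the fold threshold of 1 in either direction; *Fabp4* alone lies beyond it with its whole interval (2.48 to 3.79), *Angptl4* sits on it (0.98), and the other 4 lie close to 0.

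*Zfp423* encodes a zinc finger transcription factor that marks committed preadipocytes and promotes *Pparg* expression. It (ENSMUSG00000045333) spans 87661810 to 87959595 of chromosome 8, on the minus strand. Its normalized counts were 726, 828 and 801 with vehicle and 640.2, 639 and 729 with corticosterone, on 570 to 1073 reads. Corticosterone replicates 1 and 2 were lower than every vehicle library, while replicate 3 lay just above vehicle replicate 1, so the groups overlapped. The means were 785 ± 53.0 and 669.6 ± 51.6 (SD, n = 3), and the log2 fold change was -0.23 (SE 0.07, 95% interval -0.38 to -0.08, limma adjusted p = 0.035). The exact permutation test gave p = 0.2.

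The *Zfp423* call was a narrow one. It was lost with a pseudocount of 0.01 (adjusted p = 0.051), without a variance trend in limma (0.27), and without vehicle replicate 2 (0.15), vehicle replicate 3 (0.19), corticosterone replicate 1 (0.17) or corticosterone replicate 2 (0.16), with a log2 fold change of -0.29 to -0.19 over the 6 fits that left a library out. The direction was the same in each of these fits. Little of its transcript sequence is shared with other genes, 0.252% of its 31-base words, all of it with its paralog *Zfp521*.

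*Plin2* encodes perilipin 2, which coats lipid droplets in most cell types and is degraded when it has no droplet to sit on. It (ENSMUSG00000028494) lies on chromosome 4, 86648386 to 86670060, on the minus strand. Its normalized counts were 1048, 1183 and 1048 with vehicle and 1024, 1127 and 1035 with corticosterone. The values of both groups interleaved, with replicate 2 the highest of each. The means were 1093 ± 78.2 and 1062 ± 56.5 (SD, n = 3), and the log2 fold change of -0.04 had a 95% interval of -0.17 to 0.09 (limma adjusted p = 0.74, exact permutation p = 0.5). At 809 to 1533 reads per library, a difference within that interval was not detectable.

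*Plin3*, which coats newly formed droplets and was measured beside *Plin2*, rose from 1593 ± 74.4 to 1894 ± 77.0 (SD, n = 3), a log2 fold change of 0.25 (limma adjusted p = 0.0023). Within each library the log2 ratio of *Plin2* to *Plin3*, a pair chosen after its values were seen, was -0.60, -0.49 and -0.54 with vehicle and -0.87, -0.70 and -0.94 with corticosterone. The ratio was lower in every corticosterone library, by -0.29 on average (exact permutation test, two-sided, p = 0.1). Of the 31-base words of *Plin2*, 5.16% also lie in transcripts of other genes.

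*Pnpla2* encodes adipose triglyceride lipase, which removes the first fatty acid from stored triglyceride. It (ENSMUSG00000025509) lies on chromosome 7, 141455198 to 141460743, on the plus strand. Its normalized counts were 375, 438 and 354 with vehicle and 434, 455 and 432 with corticosterone, on 338 to 567 reads. The corticosterone libraries were all high, but vehicle replicate 2 reached their range. The means were 389 ± 43.7 and 440.4 ± 12.7 (SD, n = 3), and the log2 fold change was 0.19 (SE 0.08, 95% interval 0.01 to 0.36), which did not pass the adjustment (limma adjusted p = 0.17, exact permutation p = 0.3). Without vehicle replicate 2 it was 0.27 with an adjusted p of 0.029.

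The lipase needs the co-activator ABHD5. *Abhd5* was at 461 ± 9.15 with vehicle and 447 ± 26.4 with corticosterone (SD, n = 3), a log2 fold change of -0.05 (limma adjusted p = 0.74). The log2 ratio of *Abhd5* to *Pnpla2* was 0.33, 0.08 and 0.35 with vehicle and -0.03, -0.04 and 0.14 with corticosterone. The groups overlapped through vehicle replicate 2 and corticosterone replicate 3, and the mean difference was -0.23 (exact permutation test, two-sided, p = 0.2). The inhibitor gene *G0s2* was not analysed here.

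*Lipe* encodes hormone-sensitive lipase, which acts on the diglyceride that the first lipase leaves. It (ENSMUSG00000003123) lies on chromosome 7, 25379527 to 25398710, on the minus strand. Its normalized counts were 88.4, 73.3 and 78.6 with vehicle and 76.0, 97.2 and 69.1 with corticosterone, on 54 to 109 reads. Corticosterone replicates held both the highest and the lowest value. The means were 80.1 ± 7.64 and 80.8 ± 14.6 (SD, n = 3), with a log2 fold change of 0.0009 (SE 0.17) and a 95% interval of -0.36 to 0.37, so a difference within that range was not detectable at this depth. The limma adjusted p was 1.0, and so was the exact permutation p. An antisense gene, *4732471J01Rik*, overlaps 918 of its exon bases. How the counting treated strand is not given in the sources used here, so reads of that overlap cannot be told apart. Counted on either strand, 12.9% of the 31-base words of *Lipe* lie in transcripts of other genes, *4732471J01Rik* among them.

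The levels of the members differed widely from each other when set per length. Per kb of the principal coding mRNA, the vehicle level was highest for *Plin2*, at a normalized count of 579 ± 41.4 per kb (SD, n = 3). *Pnpla2* followed at 216 ± 24.3 and *Zfp423* at 159.9 ± 10.8 per kb. *Angptl4* was at 51.2 ± 9.82 per kb, *Lipe* at 22.2 ± 2.12 and *Fabp4* lowest at 16.5 ± 7.49, and the spreads of these last 2 met. On this scale, and among the measured members only, the droplet coat and the first lipase were thus the most abundant in vehicle cultures. The fat-cell fatty acid carrier was the least.

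With corticosterone *Plin2* was at 562 ± 29.9 per kb and *Pnpla2* at 245 ± 7.08 per kb (SD, n = 3). *Fabp4*, at 135 ± 12.8 per kb, then stood level with *Zfp423*, at 136 ± 10.5 per kb. *Angptl4* was at 99.7 ± 0.897 per kb and *Lipe* at 22.4 ± 4.05. *Fabp4* thus moved from the lowest place to a level close to the preadipocyte factor. Divided by the length of all annotated exons instead, *Fabp4* went from 3.29 to 26.9 per kb and stayed below *Zfp423* at 119 and *Angptl4* at 93.1, since its annotated exons total 4489 bases and its principal mRNA 896. *Zfp423* stood above *Pnpla2* with vehicle on that scale, at 139.9 against 129 per kb.

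**Figure D3:**
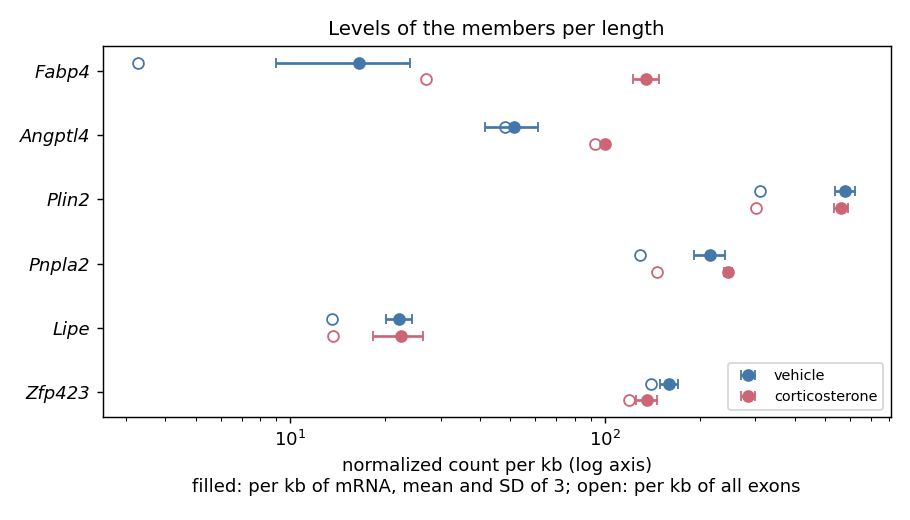
Normalized count per kb (log axis) of each member with vehicle (blue) and corticosterone (red). Filled points with bars are the mean and SD of 3 libraries per kb of principal mRNA, and open points the mean per kb of all annotated exons; *Plin2* is highest on both scales, and *Fabp4* moves from 16.5 to 135 per kb of mRNA.

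Promoter sequence from RefSeq (GRCm38.p6, 250 bases before to 50 after each start) was matched by symbol for 4 of the 6 measured members, *Plin2*, *Lipe*, *Pnpla2* and *Zfp423*, in 6 windows. *Fabp4* and *Angptl4* had no entry. Each window was searched on both strands for the glucocorticoid response element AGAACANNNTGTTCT and the PPAR response element AGGTCANAGGTCA, each with at most 2 mismatches, and for TGTTCT alone, which is also the last part of the first element. These letters lie in 1.84%, 3.86% and 19.0% of all 32851 promoters of that length, in the order given. 1 of the 6 windows held a match, that of *Plin2*, which is shown because it is the only one. The match reads AGGTCAGGGGTCC, with 2 mismatches to the PPAR element, on the strand opposite to the gene, 225 to 213 bases before the start. The stretch below runs 5′ to 3′ on the strand of the gene, chr4:86670250-86670309 (minus strand), with the matching letters in capitals.
Plin2: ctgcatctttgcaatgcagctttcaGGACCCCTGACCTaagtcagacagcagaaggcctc
The match is a description of letters, and *Plin2* itself had a log2 fold change of -0.04.

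In the wider pathway genes moved in both directions, mostly by small amounts. 9 related lists hold 121 genes, of which 103 were measured. 26 of them were higher and 13 lower at an adjusted p under 0.05, where 16.7% of all genes passed in either direction. Past both thresholds 1 was higher (*Lpin3*), where 1.38% of all genes were, and 1 was lower (*Vldlr*), where 1.4% were. 82 of the 103 had a mean of at least 10, and the 39 that passed the adjusted p were all among these. Of all genes at that level 27.7% passed it. The median log2 fold change over the 103 genes was 0.06, against -0.01 over all genes.

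Of the adipogenic activators, 15 of 16 were measured, and 6 rose and 3 fell at an adjusted p under 0.05, with a median log2 fold change of 0.15. Of all genes 16.7% passed in either direction, and of those with a mean of at least 10, 27.7%. *Stat5a*, a signal transducer of cytokine and growth hormone receptors, was at 647, 639 and 703 with vehicle and 1156, 1246 and 1163 with corticosterone, a log2 fold change of 0.84 (limma adjusted p = 2.8e-08). Its close relative *Stat5b* rose by 0.53 (limma adjusted p = 3.7e-06). The C/EBP factors, named here after their values were seen, went different ways. *Cebpa*, which works with PPARγ late in adipogenesis, fell from 281, 395 and 302 to 198, 212 and 188, a log2 fold change of -0.69 (limma adjusted p = 0.00036). *Cebpb*, which acts early, rose by 0.50 (limma adjusted p = 5.1e-06), and *Cebpd* had a log2 fold change of 0.06 (limma adjusted p = 0.61).

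Of the restraints on adipogenesis, 8 of 9 were measured, 1 rose and 2 fell, and the median was -0.04. The share passing the adjusted p was 16.7% of all genes and 27.7% of those with a mean of at least 10. *Wnt10b*, a WNT ligand that holds precursors back from the adipocyte fate, was at 337, 468 and 365 with vehicle and 191, 221 and 201 with corticosterone. The groups lay apart, with a log2 fold change of -0.92 (SE 0.11, limma adjusted p = 1.5e-05). *Nr2f2*, the orphan nuclear receptor COUP-TFII, fell by 0.54 on the log2 scale (limma adjusted p = 2.1e-07).

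Of the mesenchymal progenitor markers, 9 of 10 were measured, 5 rose and none fell, and the median was 0.29. The adjusted p was passed by 16.7% of all genes and by 27.7% of those with a mean of at least 10. *Pdgfra*, a receptor of stromal and adipocyte progenitors, rose from 3039 ± 185 to 5145 ± 209 (SD, n = 3), a log2 fold change of 0.76 (limma adjusted p = 9.9e-09). *Cxcl12*, the chemokine of marrow stroma, was at 16795, 12941 and 15092 with vehicle and 27593, 26739 and 30488 with corticosterone, a log2 fold change of 0.93 (limma adjusted p = 7.4e-08). Without vehicle replicate 1, *Wnt10b* (-1.02) and *Cxcl12* (1.01) also passed the fold threshold, and the count of related genes past both thresholds went from 2 to 4.

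Of 13 mature adipocyte markers 4 were measured, and none of them had more than 4 reads in any library. *Plin1*, the perilipin of fat-cell droplets, had no read in 5 libraries and a normalized count of 2.56 in corticosterone replicate 3. *Acvr1c* was at 0.811, 1.54 and 0 with vehicle and at 3.21, 1.10 and 3.84 with corticosterone. A count of 3 reads, the limit that a count of 0 allows, is a normalized count of 2.32 to 3.84 in these libraries, so no difference in these markers was detectable.

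Triglyceride synthesis was the list of *Lpin3*, which encodes a phosphatidate phosphatase that makes diglyceride. 14 of its 16 genes were measured, 4 rose and 2 fell, and the median was 0.04. Among all genes 16.7% passed the adjusted p, and among those with a mean of at least 10, 27.7%. *Lpin3* (chromosome 2, 160880670 to 160906002, plus strand) was at 462, 611 and 577 with vehicle and 1691, 1729.6 and 1666 with corticosterone. The groups lay far apart, with a log2 fold change of 1.63 (SE 0.08, 95% interval 1.46 to 1.81, limma adjusted p = 4.3e-10) that stayed within 1.51 to 1.71 when any library was left out. Its paralogs were named after their values were seen. *Lpin2* fell by 0.24 on the log2 scale (limma adjusted p = 0.0058), and *Lpin1* had a log2 fold change of 0.10 (limma adjusted p = 0.37).

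Within each library the log2 ratio of *Lpin3* to *Lpin2* was -1.49, -1.05 and -1.17 with vehicle and 0.72, 0.64 and 0.54 with corticosterone. *Lpin3* counts were thus below those of *Lpin2* in every vehicle library and above them in every corticosterone library, a mean difference of 1.87. The pair was chosen after its values were seen. Its genes already separated the groups in opposite directions, so the p of 0.1 (exact permutation test, two-sided) was fixed beforehand. *Agpat3*, an acyltransferase of the step before, rose by 0.65 (limma adjusted p = 9.9e-09). *Dgat1*, which adds the last fatty acid, rose by 0.51 (limma adjusted p = 5.5e-06).

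Of the genes of fatty acid uptake and activation, 17 of 18 were measured, 6 rose and 3 fell, and the median was 0.08. The adjusted p was passed by 16.7% of all genes and by 27.7% of those with a mean of at least 10. *Vldlr* (chromosome 19, 27216484 to 27254231, plus strand), a receptor that takes up triglyceride-rich lipoproteins, was at 171, 226 and 204 with vehicle and 66.4, 78.4 and 60.1 with corticosterone. It was lower in every corticosterone library, with a log2 fold change of -1.55 (SE 0.15, 95% interval -1.86 to -1.24, limma adjusted p = 9e-07). The larger receptor *Lrp1*, which also binds lipoprotein remnants, rose from 30758 ± 924 to 50578 ± 1004 (SD, n = 3), a log2 fold change of 0.72 (limma adjusted p = 9.1e-10). *Slc27a3*, a fatty acid transport protein, fell by 0.84 on the log2 scale (limma adjusted p = 1.2e-07).

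In the lists of lipid droplet proteins and of lipolysis genes, 2 of 10 measured genes each passed the adjusted p, a share near that of all genes (16.7%). Of the droplet proteins 10 of 13 were measured, 2 rose and none fell, with a median of 0.07. Besides *Plin3*, *Hsd17b11*, a dehydrogenase that sits on droplets, rose by 0.31 (limma adjusted p = 0.0027). Of the lipolysis genes 10 of 14 were measured, none rose and 2 fell, with a median of -0.15. These 2 were the protein kinase A subunits *Prkaca*, at -0.28 (limma adjusted p = 0.00022), and *Prkar2b*, at -0.39 (limma adjusted p = 0.0012), which pass on the hormonal signal to the lipases and act in many other pathways.

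All 17 genes of the PPAR partners and fatty acid oxidation list were measured, and 2 rose and 1 fell, with a median of 0.07. That share was near the 16.7% of all genes that passed the adjusted p. *Pdk4*, a kinase that turns cells from glucose towards fat oxidation, fell from 4214 ± 70.9 to 3432 ± 85.6 (SD, n = 3), a log2 fold change of -0.30 (limma adjusted p = 5.3e-05). *Ppargc1b*, a co-activator of nuclear receptors, was at 52.7, 47.1 and 48.6 with vehicle and 73.9, 89.5 and 90.8 with corticosterone, a log2 fold change of 0.77 (limma adjusted p = 0.0052).

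**Figure D4:**
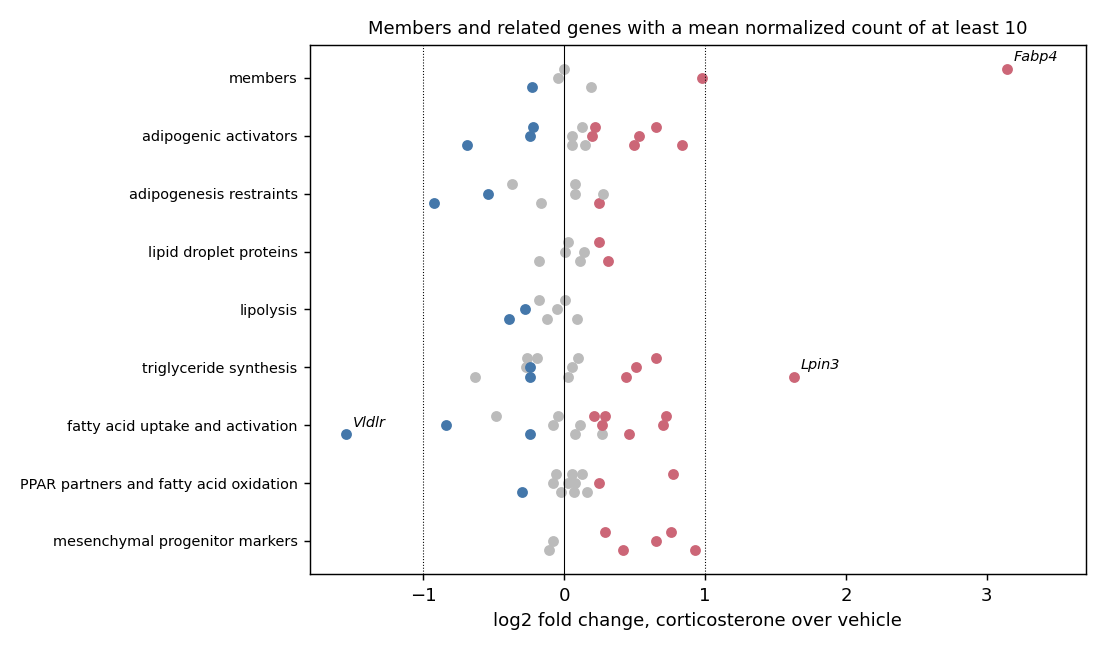
Log2 fold change (corticosterone over vehicle) of the members and of each related list, 1 point per gene with a mean normalized count of at least 10; red and blue points passed an adjusted p of 0.05 in limma as higher and lower, grey ones did not, and dotted lines mark the fold threshold of 1. Most points lie within the lines, and *Fabp4* (3.14), *Lpin3* (1.63) and *Vldlr* (-1.55) lie beyond them.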

How the data were processed

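RNA of 3 vehicle-treated and 3 corticosterone-treated MC3T3-E1 cultures was sequenced commercially at Novogene on an Illumina platform, and the authors tested expression with DESeq2. The submitters' processing notes name the build mm10. The aligner, the counter, its use of strand and the annotation are not given in the sources used here. The authors deposited 1 table of a signal per gene and library, named FPKM, whose values are reads divided by 1 factor per library. Whole reads were recovered for 100% of the values within a tolerance of 0.01 reads.

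The members, lists and tests were chosen with earlier results of these data known. In R 4.3.3, limma 3.58.1 was fitted to log2(value + 0.1) with lmFit and trended eBayes, and p-values were adjusted by Benjamini-Hochberg. The filter, a mean normalized count of 0.1 or more, removed no gene. The biological replicates come from 1 cell line. Their numbers 1 to 3 are shared by both groups but not said to pair cultures, so the replicate block was an alternative.

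Genes named were the members and, from each list, those past the threshold with a mean of at least 10 plus the 2 others with the smallest adjusted p. *Abhd5* was named for its ratio to *Pnpla2*, and marker genes for the check of cell types. Any other gene is said to have been picked with its values in view. Alternatives were pseudocounts of 1 and 0.01, no filter, a mean of at least 10, upper-quartile scaling, scaling to the same total, a robust prior variance, no variance trend, edgeR 4.0.16 and DESeq2 1.42.0 on the recovered reads, the block in limma and edgeR, and leaving out each library. The main limma fit, edgeR without the block and DESeq2 were also run on simulated data with known changes. The other alternatives were not, and the outcome is not reported here. Symbols and coordinates came from GENCODE M21 (GRCm38), which matched 23983 of 24016 identifiers. Per-length levels used the principal coding transcript.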

Additional observations from a re-analysis of the deposited data

How the results depend on the processing

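1 member (*Fabp4*) was past the threshold as higher in each alternative that kept all libraries (the one with no filter is the same fit, since the filter removed no gene), and leaving out 1 library gave 1 to 2, with *Angptl4* added without vehicle replicate 2. No member was lower in any. The members with an adjusted p under 0.05 numbered 2 to 3. The *Fabp4* log2 fold change was 3.04 to 3.15 over these and 2.73 to 3.45 without 1 library. *Angptl4* gave 0.93 to 0.98 and 0.86 to 1.12, *Plin2* -0.08 to -0.04 and -0.08 to 0.02, *Pnpla2* 0.14 to 0.19 and 0.12 to 0.27. In limma without a variance trend the adjusted p rose to 0.019 for *Fabp4* and to 0.032 for *Angptl4*. Without 1 library it was at most 0.0021 for *Fabp4* and 0.0069 for *Angptl4* in limma. *Lipe* changed sign with upper-quartile scaling (-0.00039) and with scaling to the same total (-0.04), and ran from -0.14 to 0.11 without 1 library. *Zfp423* was -0.23 both with a pseudocount of 0.01 and with no variance trend, no longer past the adjusted p, and -0.29 to -0.19 without 1 library. The cause was not tested. Related genes past the threshold numbered 2, or 2 to 4 without 1 library. The ratio of *Abhd5* to *Pnpla2* kept its sign (-0.32 to -0.18 without 1 library). Ratios of *Angptl4* to *Lpl* and of *G0s2* to *Pnpla2* were not run.

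With the replicate block 1 member was higher, 0 were lower and 3 passed the adjusted p, *Fabp4* stayed at 3.14, and no call changed. Deviations of same-numbered libraries correlated at -0.0438, 0.00136 and 0.0234 over 13880 genes, so the numbers were not taken to pair the cultures. Depth limits the low members: a count of 3 reads is a normalized count of 2.32 to 3.84, and *Fabp4* had 10 to 26 reads with vehicle.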
